A study of Mus musculus with 6 samples.

Results

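Gdf3, a ligand of the TGF-beta superfamily, and 9 further genes of the TGF-beta branch were followed through the cells of the injured mouse rotator cuff enthesis, the site where tendon inserts into bone, at 7 days post injury (7 dpi). The 10 genes, out of 32285 in the count tables, were found by symbol: the ligand genes Gdf3, Tgfb1, Tgfb2, Tgfb3 and Inhba, the receptor genes Tgfbr1, Tgfbr2 and Tgfbr3, the gene Ltbp2 of the latent TGF-beta binding family and the response gene Tgfbi. Gdf3 was picked because of its pattern in macrophages and osteoclasts in these same libraries, so its values there are a description and carry no test. Single-cell RNA was measured in 6 droplet libraries, 3 of wild-type and 3 of Nlrp3-/- animals, the latter lacking the sensor protein of the NLRP3 inflammasome in every cell of the body. Per the study's methods, the mice were 12 to 14 weeks old, the wild-type mice were C57BL/6, the knockout was a line from another supplier whose strain is not given, and all animals had the rotator cuff torn and repaired. Tissue was described as pooled, and an n of 3 per genotype is stated without saying whether it counts animals or pooled libraries, so each p-value below measures the spread between libraries only.

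Ligands of the TGF-beta branch are secreted dimers that bring type II and type I receptor kinases together, and the type I receptor then phosphorylates the transcription factors Smad2 and Smad3. TGF-beta itself is stored in the matrix as a latent complex with its propeptide and an LTBP protein until integrins or proteases release it. In healing tendon the pathway is known for scar formation and for the specification of tendon and enthesis progenitors, and macrophages are among the cells that both release and answer its ligands.

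The libraries held 97042713 to 134901999 unique molecular identifiers (UMIs), and 80938 cells were kept. Cells were clustered and clusters were named by resemblance to marker lists, so every cell type name below means cells like that type. Ctsg Mpo cells and Rgs5 Notch3 cells are the exceptions: no list named these clusters, and they are called by leading genes. Macrophages include osteoclasts, which share their lineage. A mesenchymal cluster led by Tnmd with 3525 cells and another led by Col2a1 with 1170 cells showed that tendon and cartilage cells were present, although most cells were of blood or marrow types. Nlrp3-/- replicate 1 stood apart from the other libraries: 10459 of its 21050 cells lay in clusters found almost only there. With such clusters set aside, 11084 cells in all, 69854 cells were left, and 11 major types and 7 subsets with at least 20 cells in every library were compared. Mast cells and basophils and a few mesenchymal subsets, such as tenocytes and fibroblast progenitors, did not reach this number in every library, and the orders of levels below are among the major types compared, or among the subsets compared where subsets are named. Any pair of libraries shared 30 to 130 cell barcodes. Over all kept cells, wild-type libraries carried Nlrp3 at 131 ± 35.7 CPM (mean ± SD, n = 3; CPM are counts, here UMIs, of a gene per 1e+06 UMIs summed over the cells of a library or type), and each Nlrp3-/- library carried 0 UMIs of it. The genotype field of Nlrp3-/- replicates 2 and 3 names other Nlrp genes while the titles name Nlrp3, and the values follow the titles. Xist, the RNA of X inactivation, was at 885 ± 88.0 CPM in Nlrp3-/- and at 0.058 ± 0.045 CPM in wild-type libraries, and the Y-linked gene Ddx3y was at 49.0 ± 8.82 CPM in wild-type and at 0 in Nlrp3-/- libraries. Sex and genotype therefore cannot be told apart in any comparison below.

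Gdf3 (ENSMUSG00000030117, chr6:122605403-122610087, minus strand, mm10/GRCm38) encodes growth differentiation factor 3, a ligand of the Nodal and activin branch best known from the early embryo and from fat tissue. In macrophages it was measured at 3.09, 11.7 and 1.66 CPM in wild-type replicates 1, 2 and 3 and at 61.7, 51.0 and 74.0 CPM in Nlrp3-/- replicates 1, 2 and 3. All 3 Nlrp3-/- libraries lay above all 3 wild-type libraries, on plain CPM and on the TMM-scaled CPM explained below. On the TMM scale, 11.5% of all genes tested in macrophages shared this pattern in this direction. The shares of all genes without overlap given below are on the TMM scale too. The ratio of the means was 11.3, and the lowest Nlrp3-/- library was 4.34 times the highest wild-type library. Wild-type replicate 2 was the highest wild-type library, and without it the ratio was 26.2. Together 399 wild-type and 3862 Nlrp3-/- UMIs stood behind these values.

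The mean level of Gdf3 fell from AIM through the unnamed macrophages and osteoclasts to PIM in both genotypes. Anti-inflammatory macrophages (AIM), with high C1qa, Mrc1 and Ccl8, carried 4.54, 18.5 and 3.13 CPM in the wild-type and 102, 89.0 and 108 CPM in the Nlrp3-/- libraries. Osteoclasts, the bone-resorbing cells marked by Acp5, Ctsk and Mmp9, carried 0.73, 8.59 and 2.08 CPM against 42.8, 41.8 and 55.9 CPM. Pro-inflammatory macrophages (PIM), with high Ly6c2, Ccr2 and Plac8, carried the lowest level of the subsets, at 1.63, 3.56 and 0.59 CPM against 15.9, 9.69 and 12.7 CPM. The genotypes did not overlap in any of the 3 subsets, with wild-type replicate 2 the highest control in each. The ratios of the means were 11.4 in AIM, 12.3 in osteoclasts and 6.63 in PIM, and without wild-type replicate 2 they were 26.0, 33.3 and 11.5. Among the Nlrp3-/- libraries AIM, osteoclasts and PIM occupied separate ranges, whereas in wild-type libraries the ranges of AIM, osteoclasts and PIM overlapped each other. The macrophages left without a subset name carried 6.43, 14.2 and 0.39 CPM against 49.6, 69.6 and 77.3 CPM, also without overlap. Of all genes tested, 10.8% in AIM, 12% in osteoclasts, 8.88% in PIM and 8.18% in the unnamed macrophages were likewise higher in Nlrp3-/- libraries without overlap.

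**Figure D1:**
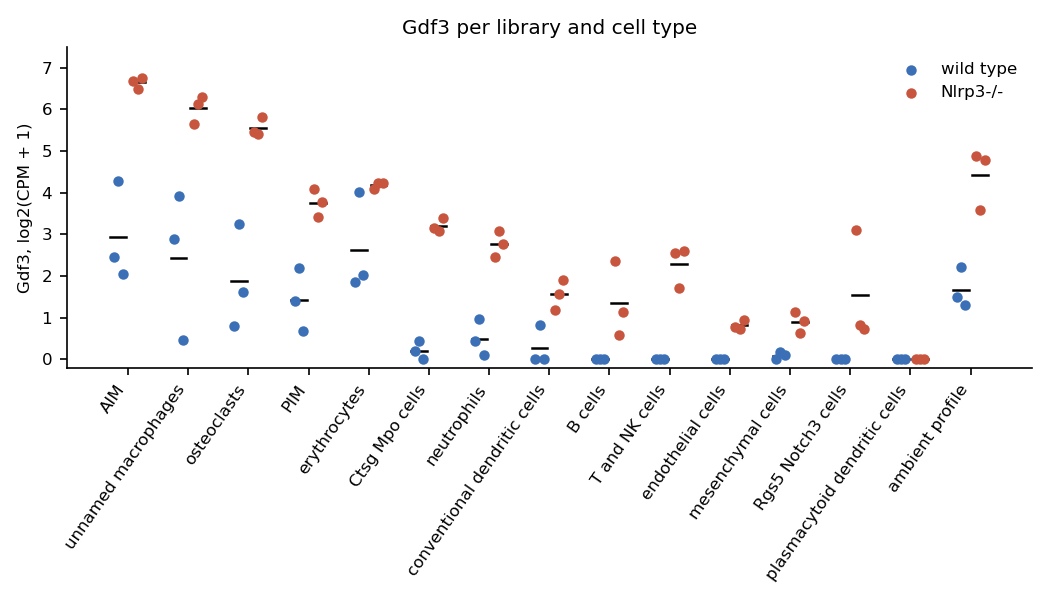
Gdf3 as log2(CPM + 1) in each library (points) with the mean of each genotype (bars), for macrophage subsets, osteoclasts, the other major cell types and the ambient profile. The 3 Nlrp3-/- libraries lay above the 3 wild-type libraries in AIM, PIM and osteoclasts, while wild-type replicate 2 reached 15.1 CPM in erythrocytes, close to the Nlrp3-/- libraries there.

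Within the macrophages, Gdf3 was also read in each of the 20 clusters by number, a view chosen after the data had been seen. Of these, 16 held at least 20 cells in every library, and in 12 of the 16 all Nlrp3-/- libraries lay above all wild-type libraries. The clusters share the same 6 libraries, and Gdf3 was picked for this pattern, so the count supports nothing by itself. The share of all genes without overlap was not computed per cluster. The highest levels were in cluster 11 of AIM, led by Fcrls, C1qc and Hpgds, with a mean of 139 CPM in Nlrp3-/- and 24.2 CPM in wild-type libraries, and in cluster 7 of AIM, led by Ccl8, Gas6 and Cela1, with 136 and 9.30 CPM. At the other end, cluster 15 of PIM carried 1.80 CPM in Nlrp3-/- and 1.27 CPM in wild-type libraries, and cluster 2 of PIM carried 6.99 and 2.59 CPM. In both of these the genotypes overlapped. Osteoclast cluster 9, led by Slc9b2, Dusp9 and Ctsk, carried 72.5 and 5.58 CPM, and the dividing cluster 14, led by Hist1h1b, carried 53.4 and 4.63 CPM. Osteoclast cluster 18, led by Mt3, Ctsk and Mmp9, carried only 14.9 and 0.72 CPM.

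**Figure D2:**
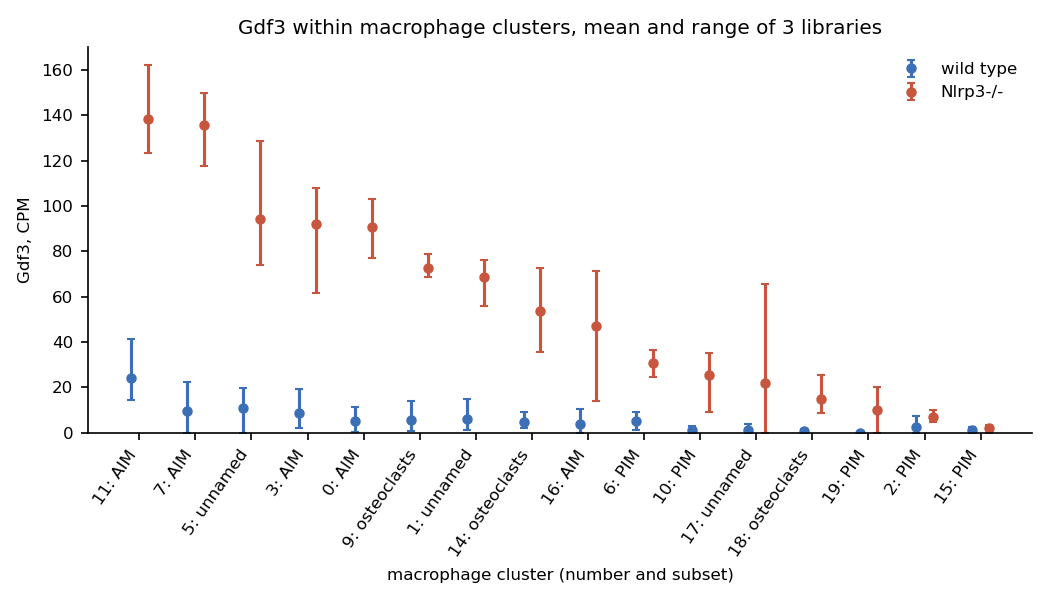
Gdf3 in CPM within each macrophage cluster with at least 20 cells in every library, as the mean (point) and range (line) of 3 libraries per genotype. Clusters of AIM reached 139 CPM in Nlrp3-/- libraries, and the means of clusters 2 and 15 of PIM were at most 6.99 CPM.

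Counted per cell, Gdf3 was sparse. After each cell was thinned to 1000 UMIs, 0.472 ± 0.408% of wild-type macrophages and 5.35 ± 1.21% of Nlrp3-/- macrophages had at least 1 Gdf3 UMI (SD, n = 3). The wild-type libraries ranged from 0.189% to 0.939% and the Nlrp3-/- libraries from 3.98% to 6.29%, without overlap. Before thinning the shares were 1.52 ± 1.39% and 17.2 ± 4.24%, at median depths of 4107 to 5982 and 4334 to 5998.5 UMIs. In AIM the thinned shares of cells with Gdf3 were 0.696% and 8.01%, and in osteoclasts 0.362% and 5.28%. In B cells, which should lack the gene, the thinned share was 0% in wild-type and 0.277 ± 0.430% in Nlrp3-/- libraries, at median depths of 1590 to 3405 and 1787 to 1968 UMIs. Leaving out shallower cells removed 659 wild-type and 348 Nlrp3-/- macrophages.

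Most Gdf3 UMIs in cells came from macrophages, at 77.7 ± 9.87% of the Gdf3 UMIs of a wild-type library and 83.4 ± 10.3% of those of a Nlrp3-/- library. Outside them the gene was low in the other major types of wild-type libraries. Erythrocytes were the exception, with 2.61, 15.1 and 3.05 CPM, a mean of 6.92 CPM that was above the 5.49 CPM of macrophages with overlapping ranges, and with 16.1, 17.9 and 17.9 CPM in Nlrp3-/- libraries. Wild-type replicate 2 was again the highest control. Neutrophils, conventional dendritic cells, Ctsg Mpo cells and mesenchymal cells each lay under 1 CPM in every wild-type library. B cells, T and NK cells, endothelial cells and Rgs5 Notch3 cells had 0 Gdf3 UMIs in the wild-type libraries, and plasmacytoid dendritic cells had none in any library. The pooled UMIs of near-empty droplets, the ambient profile, carried Gdf3 at 1.82, 3.65 and 1.46 CPM in wild-type and at 28.6, 10.9 and 26.6 CPM in Nlrp3-/- libraries, so free Gdf3 RNA also differed between the genotypes. Its part in the low values of the other cell types was not tested.

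Gdf3 passed the filter on low counts in 4 types outside macrophages and osteoclasts, and the edgeR quasi-likelihood test was read there. These are the same libraries in which the gene was picked, so the tests are no independent evidence of its direction. In Ctsg Mpo cells, neutrophils and mesenchymal cells the wild-type libraries together held only 2, 21 and 7 Gdf3 UMIs. There the gene was tested because of its level in Nlrp3-/- libraries and had to differ, so the p-values support nothing by themselves. In Ctsg Mpo cells, granulocyte-monocyte precursors by their leading genes, Gdf3 was at 0.15, 0.35 and 0 CPM in wild-type and at 7.86, 7.41 and 9.51 CPM in Nlrp3-/- libraries. No Nlrp3-/- library reached down to a control (11.4% of all genes were higher without overlap), and Gdf3 passed the test (log2 fold change 5.62, standard error 0.55, edgeR adjusted p 0.000224) in a type where 0.537% of all genes tested did. The edgeR adjusted p was 3.8e-18 to 0.00325 over 11 other edgeR fits, not counting the fit that kept the set-aside cells. DESeq2 and clustering at resolution 2 gave no value. The log2 fold change depended on which wild-type library was left out, from 4.87 to 6.24. Only 2 wild-type UMIs stood against 118 in Nlrp3-/- libraries, a ratio of 65.2 with a 95% counting interval of 17.7 to 545. The 12 macrophage markers summed to 8045 to 10940 CPM in wild-type and 7744 to 9268 CPM in Nlrp3-/- Ctsg Mpo cells, which overlapped. This sum may hold RNA of the Ctsg Mpo cells themselves, so it cannot show how much came from macrophages. The part of macrophage or free RNA in the Gdf3 values of these cells was not tested. In neutrophils Gdf3 was at 0.460 ± 0.450 CPM in wild-type and 5.93 ± 1.46 CPM in Nlrp3-/- libraries (edgeR adjusted p 0.0797), in mesenchymal cells at 0.067 ± 0.065 and 0.882 ± 0.327 CPM (edgeR adjusted p 0.287), and in erythrocytes at 6.92 ± 7.09 and 17.3 ± 1.05 CPM (edgeR adjusted p 0.274). None of these 3 passed with edgeR (DESeq2 adjusted p 4.3e-07 in neutrophils and 0.00871 in mesenchymal cells), where 0.343%, 0.128% and 0.142% of all genes did, and in each the Nlrp3-/- libraries lay above the controls, as 9.28%, 9.29% and 12.2% of all genes did. In erythrocytes the summed macrophage markers also differed, at 213 to 509 CPM in wild-type and 511 to 2437 CPM in Nlrp3-/- libraries, and their part in the Gdf3 values was not tested.

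The genes next to Gdf3 on chromosome 6 were read as well, a view also chosen after the data had been seen. The count table held 6 other genes within 100 kb, of which 4 were tested in macrophages, with edgeR adjusted p from 0.642 to 0.949. Apobec1, an RNA-editing deaminase on one side of Gdf3, was at 66.3 ± 11.2 TMM-scaled CPM in wild-type and 65.5 ± 6.51 in Nlrp3-/- macrophages (log2 fold change -0.02, standard error 0.14, edgeR adjusted p 0.949). TMM-scaled CPM are UMIs per 1e+06 of a library total that was adjusted by the trimmed mean of M values. Dppa3, a gene of the early germ line on the other side, was at 16.6 ± 6.42 and 19.6 ± 6.55 (log2 fold change 0.23, standard error 0.33, edgeR adjusted p 0.713).

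Across cell types, the genes most like Gdf3 were ranked by the Pearson correlation of log2(mean CPM + 1) over 18 types and subsets of the wild-type libraries, among 9775 genes. The points share libraries and nested cells, so the values are a description. Pf4 was first at 0.946, followed by Syngr1 at 0.902, Tbxas1 at 0.898, Smg9 at 0.861, Spic at 0.855, Vamp8 at 0.848, Dppa3 at 0.838 and Ftl1-ps1 at 0.832, the last uncertain because this pseudogene shares sequence with Ftl1. Pf4 encodes a platelet and macrophage chemokine, Tbxas1 the thromboxane synthase and Spic a transcription factor of iron-recycling macrophages. With Spearman correlation 3 of the 8 stayed among the first 8, and in the Nlrp3-/- libraries 2 did. Pf4 was at 5221 CPM in wild-type and 3092 CPM in Nlrp3-/- AIM, Syngr1 at 297 and 367 CPM, and Tbxas1 at 44.1 and 52.4 CPM.

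Tgfb1 (ENSMUSG00000002603, chr7:25687002-25705077, plus strand), the main TGF-beta of blood cells, was highest among major types in wild-type B cells at 259 ± 41.5 CPM (SD, n = 3), then in plasmacytoid dendritic cells at 217 ± 41.7 and macrophages at 191 ± 24.9 CPM, with overlapping ranges. Mast cells and basophils, too few in some libraries to be compared, carried 252 ± 26.2 CPM. By share of UMIs macrophages were the largest source of Tgfb1, as of Gdf3, with 37.2 ± 7.76% in wild-type libraries. Of the major types compared, Tgfb1 was lowest in mesenchymal cells at 55.7 ± 6.39 CPM. Among macrophages, PIM at 234 ± 29.0 and AIM at 216 ± 24.8 CPM stood above osteoclasts at 62.6 ± 5.67 CPM without overlap. Tgfb2 (ENSMUSG00000039239, chr1:186622792-186705989, minus strand) and Tgfb3 (ENSMUSG00000021253, chr12:86056745-86079041, minus strand) were mesenchymal. Tgfb2 was at 99.3 ± 53.9 CPM in mesenchymal cells, 76.4 ± 21.4 in Rgs5 Notch3 cells, which carry pericyte genes, and 13.3 ± 8.15 in endothelial cells, while macrophages had 0.572 ± 0.108 CPM. Synovial lining cells, marked by Prg4, held the most Tgfb2 of the subsets, at 168 ± 63.5 CPM. Tgfb3 was at 85.1 ± 16.5 CPM in mesenchymal cells and at 23.6 ± 5.75 CPM in synovial lining cells, below the other mesenchymal subsets compared.

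**Figure D3:**
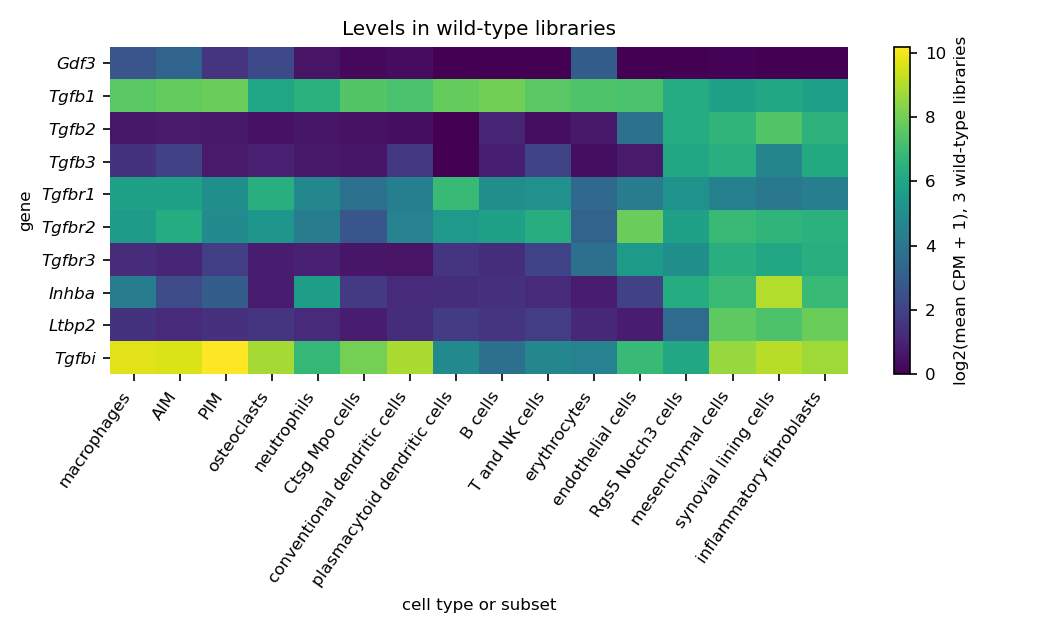
Level of the 10 genes in wild-type libraries, as log2 of the mean CPM of 3 libraries plus 1 (colour), by cell type or subset compared. Tgfbi was brightest in PIM at 1161 CPM, Inhba in synovial lining cells at 513 CPM, Tgfbr2 in endothelial cells at 231 CPM, and Gdf3 did not exceed 8.72 CPM in any column.

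Differences between the genotypes for these genes were read from the same edgeR fits over all genes, with TMM-scaled values, because plain CPM moved the median of all genes up in Nlrp3-/- libraries by 0.064 to 0.31 on the log2 scale, depending on the type. In wild-type macrophages Tgfb1 was at 231, 218 and 162 TMM-scaled CPM, and in Nlrp3-/- macrophages at 163, 134 and 148. The groups overlapped only through wild-type replicate 3, and the difference did not pass the test (log2 fold change -0.46, standard error 0.15, edgeR adjusted p 0.189). Without that library the edgeR adjusted p was 0.0158, in a fit where 18.5% of all genes passed. In other edgeR fits it was as high as 0.574. The ambient profile carried Tgfb1 at 135 CPM in wild-type and 109 CPM in Nlrp3-/- libraries, with overlap. The part of free RNA in the Tgfb1 values of macrophages and their subsets was not tested. In PIM the values of Tgfb1 were 274, 268 and 200 in wild-type and 195, 179 and 190 in Nlrp3-/- libraries, and in AIM 237, 254 and 189 against 186, 165 and 188. The genotypes did not overlap in these 2 subsets, as for 8.2% and 10.9% of all genes tested in this direction, and the edgeR adjusted p were 0.285 and 0.229. Without wild-type replicate 3 the edgeR adjusted p were 0.0206 and 0.0172, where 12.8% and 20.4% of all genes passed. In other edgeR fits they were as high as 0.772 and 0.592. In AIM the groups overlapped on plain CPM. In the mesenchymal cells without a subset name Tgfb1 was at 64.1, 57.6 and 51.1 against 40.4, 47.6 and 41.3, also without overlap (edgeR adjusted p 0.300, with 9.29% of all genes lower in this way). Over the 11 major types, which come from the same 6 libraries and are not independent, the fitted log2 fold change of Tgfb1 ran from -0.46 to 0.0076, and it passed the test in none.

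Tgfb2 in macrophages was at 0.52, 0.74 and 0.55 TMM-scaled CPM in wild-type and at 1.13, 2.62 and 1.62 in Nlrp3-/- libraries. The ambient profile carried Tgfb2 at 25.5 CPM in wild-type and 29.3 CPM in Nlrp3-/- libraries, far above the macrophage values, and the part of free RNA in them was not tested. The macrophage values did not overlap, as for 11.5% of all genes tested there in this direction. The test was not passed (log2 fold change 1.54, standard error 0.37, edgeR adjusted p 0.138). Tgfb2 passed there with DESeq2 (adjusted p 0.0389, where 4.34% of all genes passed). It also passed without the filter on low counts (edgeR adjusted p 0.0416, where 1.75% did). In mesenchymal cells, where most Tgfb2 UMIs lay, it was at 73.7, 65.4 and 165 against 99.1, 105 and 100 (edgeR adjusted p 1.00). Tgfb3 in mesenchymal cells was at 76.7, 77.4 and 107 against 146, 68.3 and 122 (edgeR adjusted p 0.565), and the genotypes overlapped in both.

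Inhba (ENSMUSG00000041324, chr13:16011851-16031621, plus strand) encodes the subunit of activin A, an inflammation-linked ligand of the same Smad branch as Gdf3. It was highest in wild-type synovial lining cells at 513 ± 245 CPM (SD, n = 3), above inflammatory fibroblasts at 120 ± 87.3 CPM without overlap. Neutrophils carried 51.6 ± 18.7 CPM and macrophages 18.4 ± 23.5 CPM, an SD above the mean. Within macrophages Inhba was high in cluster 13, led by Cxcl3, Nos2 and Ptges, at 130 and 791 CPM in 2 wild-type libraries and at 514 CPM in 1 Nlrp3-/- library, the only ones with enough cells of it. In inflammatory fibroblasts, defined by Cxcl5, Saa3 and Il6, Inhba was at 81.9, 64.8 and 224 TMM-scaled CPM in wild-type and at 183, 474 and 180 in Nlrp3-/- libraries, which overlapped because of wild-type replicate 3 (log2 fold change 1.18, standard error 0.53, edgeR adjusted p 0.404; 1.92 and 0.0470 without that library). In synovial lining cells it was at 393, 401 and 797 against 394, 1184 and 632 (edgeR adjusted p 0.546). Inhba passed in none of the 12 types or subsets in which it was tested. Without wild-type replicate 3 it passed in inflammatory fibroblasts, PIM, Ctsg Mpo cells and osteoclasts, with edgeR adjusted p from 0.0406 to 0.0476. In those fits 6.81%, 12.8%, 16.7% and 23.4% of all genes passed, in the same order.

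Tgfbr2 (ENSMUSG00000032440, chr9:116084293-116175360, minus strand), the type II receptor that binds TGF-beta first, was at 231 ± 53.7 CPM in wild-type endothelial cells, above mesenchymal cells at 116 ± 12.9 CPM without overlap, and at 49.0 ± 12.7 CPM in macrophages. AIM carried 78.3 ± 20.5 and PIM 29.2 ± 5.04 CPM of Tgfbr2, again without overlap. Tgfbr1 (ENSMUSG00000007613, chr4:47353222-47414931, plus strand), the type I receptor kinase, was highest among major types in plasmacytoid dendritic cells at 114 ± 40.2 CPM, then in macrophages at 55.3 ± 5.72 CPM. Osteoclasts with 84.6 ± 13.95 CPM stood above AIM with 55.2 ± 7.44 and PIM with 32.7 ± 6.01 CPM of Tgfbr1, and none of these ranges overlapped. Tgfbr3 (ENSMUSG00000029287, chr5:107106570-107289629, minus strand) encodes betaglycan, a co-receptor that presents TGF-beta2. It was at 84.1 ± 10.5 CPM in mesenchymal cells, 46.2 ± 12.6 in endothelial cells and 1.48 ± 1.03 CPM in macrophages. Fibroblast progenitors, too few in some libraries to be compared, carried more of both Tgfbr2, at 318 ± 21.9 CPM, and Tgfbr3, at 212 ± 88.4 CPM.

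Between the genotypes, Tgfbr2 in macrophages was at 45.9, 44.9 and 63.4 TMM-scaled CPM in wild-type and at 68.0, 75.7 and 80.8 in Nlrp3-/- libraries. All 3 Nlrp3-/- values lay above the controls, as for 11.5% of all genes tested in macrophages in this direction. Wild-type replicate 3 was the nearest control. The difference did not pass (log2 fold change 0.54, standard error 0.15, edgeR adjusted p 0.150, where 0.43% of all genes passed). Without wild-type replicate 3 the edgeR adjusted p was 0.0073, in a fit where 18.5% of all genes passed. In other edgeR fits it was as high as 0.506. The ambient profile carried Tgfbr2 at 67.8 CPM in wild-type and 102 CPM in Nlrp3-/- libraries, with overlap. The part of free RNA in the Tgfbr2 values of macrophages and their subsets was not tested. In AIM Tgfbr2 was at 72.8, 69.7 and 101 against 104, 116 and 121 (log2 fold change 0.49, edgeR adjusted p 0.153), and in osteoclasts at 36.1, 25.9 and 61.1 against 62.5, 73.8 and 64.1 (log2 fold change 0.72, edgeR adjusted p 0.141). Without wild-type replicate 3 the edgeR adjusted p were 0.0045 and 0.00107, in fits where 20.4% and 23.4% of all genes passed. In other edgeR fits they were as high as 0.480 and 0.431. The genotypes overlapped in neither subset, as for 10.8% of all genes tested in AIM and 12% in osteoclasts in this direction. In the mesenchymal cells without a subset name Tgfbr2 was at 154, 154 and 158 against 260, 213 and 235 (log2 fold change 0.60, standard error 0.13, edgeR adjusted p 0.187). The groups did not overlap, as for 10.1% of all genes in this direction. Without wild-type replicate 3 the edgeR adjusted p was 0.0413, where 7.66% of all genes passed. In other edgeR fits it was as high as 0.618. The genotypes overlapped in all mesenchymal cells, at 107, 114 and 133 against 220, 110 and 182 (edgeR adjusted p 0.418), and also in PIM (edgeR adjusted p 0.482) and unnamed macrophages (edgeR adjusted p 0.639). Over the 11 major types of the same 6 libraries the fitted log2 fold change of Tgfbr2 ran from -0.45 in neutrophils to 1.75 in erythrocytes, and it passed the test in none. The erythrocyte value rests on Nlrp3-/- replicate 1, at 58.6 against 15.9 and 16.7 TMM-scaled CPM in the other Nlrp3-/- libraries, and was 0.84 without it. The summed macrophage markers of erythrocytes given above for Gdf3 also differed between the genotypes. So did the mostly mesenchymal gene Ltbp2, at 1.27 ± 0.850 CPM in wild-type and 13.1 ± 18.1 CPM in Nlrp3-/- erythrocytes. The part of RNA from other cells in the Tgfbr2 value was not tested.

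Tgfbr1 in macrophages was at 54.2, 60.6 and 60.3 TMM-scaled CPM in wild-type and at 70.1, 75.4 and 69.8 in Nlrp3-/- libraries, without overlap, as for 11.5% of all genes in this direction (log2 fold change 0.30, standard error 0.09, edgeR adjusted p 0.175). Without wild-type replicate 3 the edgeR adjusted p was 0.0445, in a fit where 18.5% of all genes passed. In other edgeR fits it was as high as 0.550. In osteoclasts it was at 81.4, 91.8 and 97.0 against 114, 120 and 95.6, and here the genotypes overlapped (edgeR adjusted p 0.226). In mesenchymal cells Tgfbr1 was at 20.3, 21.0 and 24.1 against 25.6, 23.0 and 24.2 (edgeR adjusted p 0.563).

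**Figure D4:**
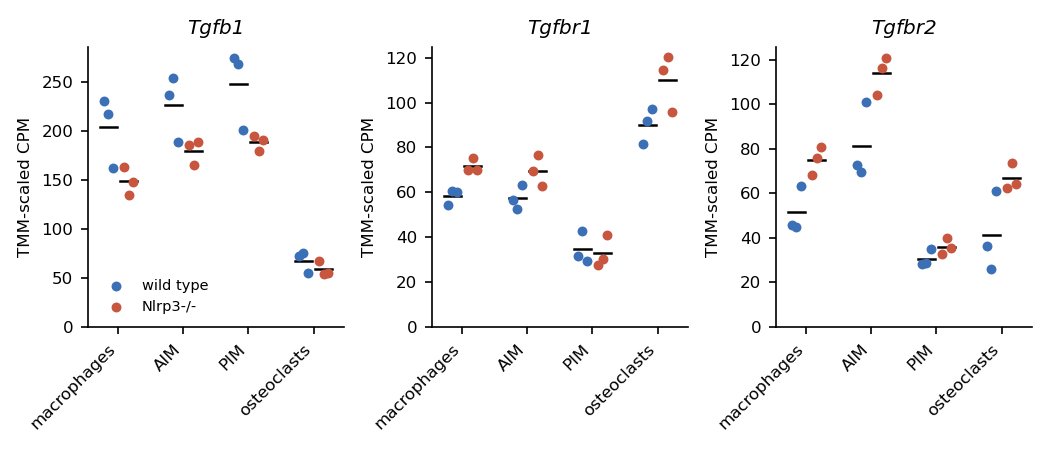
Tgfb1, Tgfbr1 and Tgfbr2 in TMM-scaled CPM in macrophages and 3 of their subsets, 1 point per library with the mean of each genotype as a bar. For Tgfbr2 the Nlrp3-/- libraries lay above the controls in macrophages, AIM and osteoclasts, from 68.0 to 80.8 against 44.9 to 63.4 in macrophages, and no difference shown passed the edgeR test.

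Promoter windows of 250 bases before to 50 bases after the start site (RefSeq, GRCm38.p6) were at hand for 7 of the 10 genes, in 8 windows. The windows of the 2 receptors whose macrophage values did not overlap between the genotypes are shown, 5′ to 3′ on the strand of the gene, with the letters CAGAC, the box that Smad proteins bind, in capitals. They lie at chr4:47352972-47353271 on the plus strand and at chr9:116175314-116175613 on the minus strand.
Tgfbr1: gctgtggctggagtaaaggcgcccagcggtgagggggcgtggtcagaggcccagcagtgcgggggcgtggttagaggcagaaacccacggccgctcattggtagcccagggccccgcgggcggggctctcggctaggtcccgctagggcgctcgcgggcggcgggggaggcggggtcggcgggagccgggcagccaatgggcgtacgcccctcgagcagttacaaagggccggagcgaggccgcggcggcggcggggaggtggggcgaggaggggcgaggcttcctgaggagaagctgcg
Tgfbr2: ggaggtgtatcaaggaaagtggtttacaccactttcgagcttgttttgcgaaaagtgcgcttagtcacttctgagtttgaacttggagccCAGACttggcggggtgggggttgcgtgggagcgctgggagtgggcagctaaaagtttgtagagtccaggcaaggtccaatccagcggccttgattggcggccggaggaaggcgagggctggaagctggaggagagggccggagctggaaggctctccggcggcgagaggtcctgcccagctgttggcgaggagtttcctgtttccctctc
Searched on both strands, CAGAC was found in 5 of the 8 windows and in 49.6% of all 32851 windows of the same length, and GAGGAA, the core bound by the myeloid factor PU.1, in 3 of the 8 and in 28.3% of all. The Tgfbr2 window held CAGAC at -160 and GAGGAA at -57 from the start site, and the Tgfbr1 window shown held neither. A second Tgfbr1 window, at chr4:47385966-47386265 and not shown, held CAGAC at -203 and GAGGAA at -95. A match of these letters is a description of the sequence and not a bound site.

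Ltbp2 (ENSMUSG00000002020, chr12:84783212-84876532, minus strand) encodes a matrix protein of elastic fibres and microfibrils that, unlike its relatives of the family, does not bind latent TGF-beta. It was almost wholly mesenchymal: mesenchymal cells held 98.3 ± 0.719% of the Ltbp2 UMIs of a wild-type library and carried 202 ± 34.6 CPM, against 1.83 ± 1.03 CPM in macrophages. In mesenchymal cells Ltbp2 was at 224, 228 and 166 TMM-scaled CPM in wild-type and at 188, 130 and 210 in Nlrp3-/- libraries, which overlapped (log2 fold change -0.23, standard error 0.22, edgeR adjusted p 0.632). In synovial lining cells Nlrp3-/- replicate 2 alone was high, with 172, 137 and 195 against 181, 491 and 194 (log2 fold change 0.80, standard error 0.35, edgeR adjusted p 0.282). In endothelial cells the gene was near its detection limit, at 0.67, 1.65 and 0 against 3.07, 3.03 and 2.82 (edgeR adjusted p 0.156), without overlap, as for 12% of all genes. The ambient profile carried Ltbp2 at 58.5 CPM in wild-type and 57.3 CPM in Nlrp3-/- libraries, far above the endothelial values. The part of free RNA in them was not tested.

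Tgfbi (ENSMUSG00000035493, chr13:56609523-56639562, plus strand), a secreted adhesion protein named for its induction by TGF-beta, was highest among major types in macrophages at 852 ± 84.4 CPM in wild-type libraries, above conventional dendritic cells at 467 ± 61.3 and mesenchymal cells at 392 ± 54.1 CPM. PIM carried 1161 ± 149 CPM, AIM 770 ± 106 and osteoclasts 454 ± 36.2 CPM of Tgfbi, without overlap between the 3. PIM, which stood lowest among these subsets for Gdf3, thus stood highest for Tgfbi. In macrophages Tgfbi was at 1045, 886 and 784 TMM-scaled CPM in wild-type and at 764, 763 and 669 in Nlrp3-/- libraries, a difference without overlap on this scale (10.9% of all genes in this direction), with overlap on plain CPM, that did not pass the test (log2 fold change -0.31, standard error 0.14, edgeR adjusted p 0.278). In neutrophils it was at 120, 183 and 61.0 against 72.2, 30.04 and 43.5, where wild-type replicate 3 lay within the Nlrp3-/- range (log2 fold change -1.33, standard error 0.44, edgeR adjusted p 0.267). In osteoclasts Tgfbi was at 538, 460 and 461 against 509, 657 and 556 (edgeR adjusted p 0.333).

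Over all 18 types and subsets, the 9 genes other than Gdf3 gave 119 tests and none had an edgeR adjusted p under 0.05, where 0.41% of all tests in these fits did. An unadjusted p under 0.05 was reached in 19 tests or 16%, 13 of them higher and 6 lower in Nlrp3-/- libraries, and in 15.5% of the tests of all genes, so the share of the 9 genes was near that of all genes. DESeq2 called 5 of the 119 tests (2.25% of all), namely Tgfb2 and Tgfbr2 in macrophages, Tgfbr2 in erythrocytes and in unnamed mesenchymal cells and Tgfbi in neutrophils. The edgeR test called 8 of 162 without the filter on low counts (2.27% of all), and 17 of 125 without wild-type replicate 3 (9.33% of all). In macrophages 3 of the 9 genes lay higher without overlap and 1 lower, as did 11.5% and 10.9% of all genes, and the median fitted log2 fold change of the 9 was 0.14, against 0.0068 over 12782 genes tested. In mesenchymal cells none of the 9 was without overlap, as 18.2% of all genes were, and their median was -0.00089, against 0.040 over all genes.

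**Figure D5:**
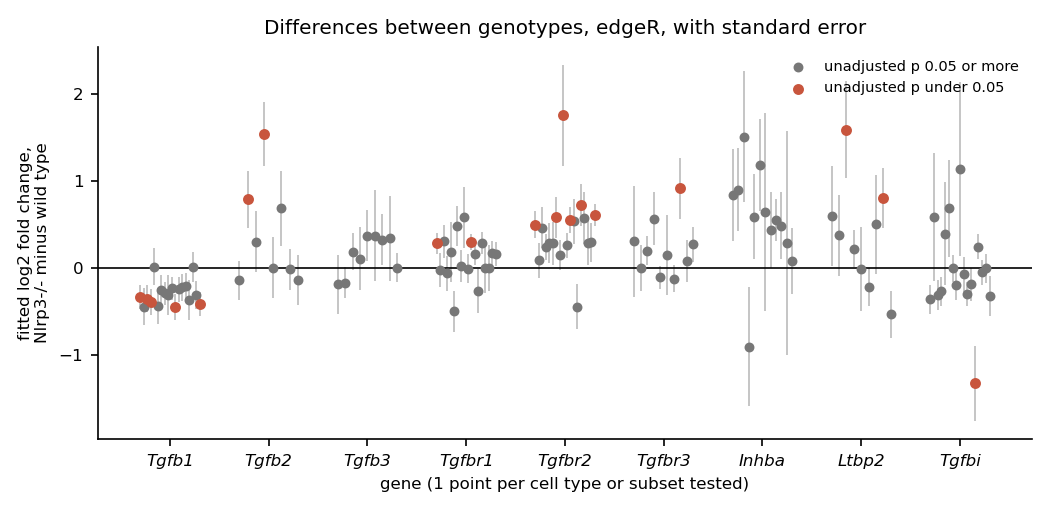
Fitted log2 fold change (Nlrp3-/- minus wild type, edgeR, vertical lines are standard errors) of the 9 genes other than Gdf3, 1 point per cell type or subset tested. Tgfb1 lay mostly below 0 and Tgfbr2 mostly above, the 19 coloured points had an unadjusted p under 0.05, and no point passed after adjustment.

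The wider TGF-beta branch was described from 6 lists of 61 genes that contain the 10 genes above. Without Gdf3 they gave 699 tests over the 18 types and subsets, of which 2 passed, both higher in Nlrp3-/- libraries, a share below the 0.41% of all tests that passed in these fits. Fn1, the matrix protein fibronectin and a TGF-beta response gene, was at 172, 153 and 186 TMM-scaled CPM in wild-type osteoclasts and at 234, 394 and 336 in Nlrp3-/- osteoclasts. The groups did not overlap, and the difference passed (log2 fold change 0.92, standard error 0.18, edgeR adjusted p 0.0456) in a type where 0.775% of all genes did. Leaving out wild-type replicate 1 or 2 gave edgeR adjusted p of 0.195 and 0.209, and leaving out Nlrp3-/- replicate 2 or 3 gave 0.218 and 0.148, while the log2 fold change in these 4 fits was 0.75 to 0.93. The call was also lost with at most 5% mitochondrial UMIs (log2 fold change 1.00, edgeR adjusted p 0.0519) and with clustering at resolution 2 (0.77, edgeR adjusted p 0.0508). Itgav, the integrin subunit that helps to release latent TGF-beta, was at 31.5, 32.6 and 37.8 in wild-type and at 58.7, 59.7 and 60.2 in Nlrp3-/- endothelial cells. It was named after its values had been seen, since endothelial cells lay outside the rule for naming genes, and it passed there without overlap (log2 fold change 0.82, standard error 0.13, edgeR adjusted p 0.0302; 0.681% of all genes passed). Without any 1 library other than wild-type replicate 3 it did not pass, with edgeR adjusted p from 0.0771 to 0.230, nor with the set-aside cells kept (edgeR adjusted p 0.108). The log2 fold change stayed between 0.755 and 0.909 in all 15 fits.

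No other gene of the lists passed. Of the latency and activation list, 10 of 12 genes were tested in endothelial cells, 7 had an unadjusted p under 0.05, all higher in Nlrp3-/- libraries (21.7% of all genes had such a p in either direction), and the median log2 fold change was 0.67 against 0.019 over all genes. Besides Itgav they included the latent TGF-beta binding protein genes Ltbp3, at 9.32 ± 0.121 against 18.4 ± 3.20 TMM-scaled CPM (edgeR adjusted p 0.0570), and Ltbp4, at 202 ± 69.0 against 357 ± 59.3 (edgeR adjusted p 0.106), both named after their values had been seen. In macrophages 9 genes of this list were tested with a median of 0.54 against 0.0068 over all genes, and 4 had an unadjusted p under 0.05, as did 18.9% of all genes. The median of the tested genes of this list was above 0 in all 18 types and subsets, from 0.092 in plasmacytoid dendritic cells to 1.52 in erythrocytes, with 0.37 in mesenchymal cells, in libraries that the types share. Following this list over all types was not set in advance. Each of the other lists had a median above 0 in some types and below 0 in others. In macrophages 1 of 9 genes of the latency and activation list was higher without overlap (11.5% of all genes). In osteoclasts 0 of 7 were (12% of all genes), and in endothelial cells 5 of 10 (12% of all genes). Ltbp2 of this list, not tested in erythrocytes, was there at 1.27 ± 0.850 CPM in wild-type and 13.1 ± 18.1 CPM in Nlrp3-/- libraries. Its ambient level was higher, at 58.5 and 57.3 CPM. The part of free RNA in the medians of the latency and activation list was not tested. The list of Smads and partners had a median of -0.14 over 12 genes in macrophages and 0.24 over 12 genes in endothelial cells. In mesenchymal cells 52 genes of the lists were tested, none passed, where 0.128% of all genes did, and 5 had an unadjusted p under 0.05, as did 12.5% of all genes.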

How the data were processed

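Single-cell libraries were made from pooled repaired enthesis tissue with the 10x droplet method and sequenced by the authors, who deposited UMI counts per gene and barcode for all droplets of the 6 libraries. The labels name Cell Ranger 2.1.1 and mm10, whereas the file headers name Cell Ranger 4, and which version made the counts is not settled here. Barcodes with at least 500 UMIs, at least 200 genes and at most 10% mitochondrial UMIs that differed from the ambient profile (droplets of at most 100 UMIs, false discovery rate 0.01) were kept, and the cells with the highest doublet scores were removed at 0.8% per 1000 cells. Cells were clustered with scanpy 1.11.5 and leidenalg 0.10.2 (2000 variable genes, 30 principal components, 15 neighbours, resolution 1) and named from marker lists (at least 3 markers). Clusters led by Ctsg or Rgs5 that no list named were called Ctsg Mpo cells and Rgs5 Notch3 cells. A cluster was set aside if over 75% of its cells lay in 1 library and their median depth was below that library's median.

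The UMIs of a gene were added up over the cells of a type within a library. Types with 20 or more cells in every library were compared between 3 wild-type and 3 Nlrp3-/- libraries with the edgeR 4.0.16 quasi-likelihood test in R 4.3.3 (TMM scaling, filter on low counts, Benjamini-Hochberg adjustment over all genes of the type, threshold 0.05). On counts simulated for macrophages with a fixed spread, the edgeR step called 17 of 100 genes changed 2-fold and 94 of 100 changed 4-fold. It made 4 false calls among 12842 genes tested. The simulated spread was the same for every gene and was not matched to the genes above, so these rates need not hold for them. A difference below 2-fold that did not pass is still no evidence that the gene was unchanged. Alternatives were DESeq2 1.42.0, RLE size factors, no filter, a replicate block, 1000 UMIs per cell, 5% mitochondrial UMIs, resolution 2, keeping the cells set aside and leaving out each library. Intervals on UMI counts are exact and cover counting error only.

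The genes and lists were chosen with earlier results of these data known. Of the pathway lists, every gene past the threshold in macrophages, AIM, PIM, osteoclasts or mesenchymal cells was to be named, up to 30, and of the genes like Gdf3 the first 8 with at least 20 CPM in their highest type.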

Additional observations from a re-analysis of the deposited data

Results flagged for a closer look

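The genotype difference of Tgfbr1 had opposite signs in different cell types. Conventional dendritic cells carried 22.7, 22.9 and 19.8 TMM-scaled CPM in wild-type and 29.2, 36.99 and 26.3 in Nlrp3-/- libraries, while T and NK cells carried 35.5, 37.3 and 37.6 against 24.7, 27.9 and 25.4. Of all genes, 11.9% were likewise higher without overlap in conventional dendritic cells and 8.16% lower in T and NK cells. On the log2(TMM-scaled CPM + 1) scale the differences of Tgfbr1 in these types lay 0.96 apart, and those in macrophages and in T and NK cells 0.78 apart. The pairs were picked because their libraries separate in opposite directions, so the difference was not tested; within types the edgeR adjusted p of Tgfbr1 were 0.255 in conventional dendritic cells, 0.175 in macrophages and 0.462 in T and NK cells. Gdf3 was also present in cells outside the comparisons: the 10459 cells set aside in Nlrp3-/- replicate 1 held it at 12.96 CPM (254 UMIs), where the 77 to 161 cells set aside per wild-type library held 0 to 1.84 CPM, from at most 1 UMI each. The other Nlrp3-/- libraries held 8.96 and 29.4 CPM there, from 12 and 21 UMIs.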

How the results depend on the processing

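Among the 10 genes, leaving aside Gdf3 in macrophages, their subsets and osteoclasts, 1 test passed, that of Gdf3 in Ctsg Mpo cells. Without the filter on low counts 12 passed and with DESeq2 7. Leaving out 1 library gave 1 to 18, the highest without wild-type replicate 3, with 2 without wild-type replicate 2 and 2 without Nlrp3-/- replicate 1. These counts include Gdf3 in the libraries in which it was picked, so they support nothing by themselves. For the 9 other genes 0 of 119 tests passed, against 8 of 162 without the filter, 5 of 119 with DESeq2 and 17 of 125 without wild-type replicate 3. Of the pathway lists 1 gene passed in macrophages, AIM, PIM, osteoclasts and mesenchymal cells together, where 18 passed without the filter, 4 with DESeq2, 0 with at most 5% mitochondrial UMIs, 0 at resolution 2 and 0 to 39 when 1 library was left out, the highest without wild-type replicate 3. Of all genes in all types 0.41% passed, against 2.27% without the filter, 2.25% with DESeq2 and 9.33% without wild-type replicate 3. The fitted log2 fold change of Gdf3 ranged over left-out libraries from 2.85 to 4.53 in macrophages, 2.90 to 4.56 in AIM, 2.12 to 3.25 in PIM and 2.83 to 4.91 in osteoclasts, each highest without wild-type replicate 2, and was 3.22 in PIM at resolution 2. Of the 8 genes most like Gdf3, 3 remained with Spearman correlation and 2 in the Nlrp3-/- libraries. The share of macrophages with a Gdf3 UMI was 1.52% in wild-type and 17.2% in Nlrp3-/- libraries without thinning, and 9.29% in Nlrp3-/- libraries thinned to 2000 UMIs. No direction reversed among the 22 pairs of a gene and a type with an unadjusted edgeR p under 0.05. These pairs, some of them of Gdf3, were picked for that p in the same libraries. Their stable direction is therefore no evidence about the other pairs. The replicate numbers did not pair the libraries (correlations of same-numbered deviations in macrophages -0.108 to -0.216). With a replicate block 1 test of the 10 genes passed, again Gdf3 in Ctsg Mpo cells. Of the lists 0 genes passed in macrophages, AIM, PIM, osteoclasts and mesenchymal cells with the block (Fn1 in osteoclasts 0.0659, edgeR adjusted p). Itgav in endothelial cells kept its call at 0.0378 (edgeR adjusted p). Why counts moved was not tested. Sex and genotype cannot be told apart, and sparse genes such as Gdf3 in wild-type cells rest on few UMIs.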
